A study of Mus musculus with 16 samples.

Results

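Afp, Igf2, H19, Gpc3, Cd24a, Igf2bp3 and Golm1 are genes that fetal liver or liver tumours express, and they were followed here in the livers of old mice without the hepatic glucagon receptor. The 7 genes were taken by name from the 41079 genes of the counts table, and each name matched 1 row. Poly-A RNA sequencing was done on 16 livers, 4 per group, from C57BL/6J mice aged 20 to 22 months. All mice carried floxed Gcgr alleles, with LoxP sites around part of the exons of the glucagon receptor gene. LKO mice also carried an Albumin-Cre transgene, whose promoter is active in hepatocytes, and CRE- mice did not. The groups were male CRE-, male LKO, female CRE- and female LKO, and each library was labelled as a separate biological replicate. Total counts per library ranged from 33268424 to 56488920. Levels are given as CPM, counts scaled to a common library size of 1000000 with TMM factors, and 3 counts, the limit that a count of 0 allows, corresponded to 0.0549 to 0.0868 CPM. This limit and the intervals below cover counting error only, and they treat the mates of a read pair as separate counts. Skeletal muscle markers stood above 5 CPM in 5 libraries, most of all in male LKO replicates 3 and 4, and pancreatic acinar markers summed to 786 CPM in female CRE- replicate 2 and 199.9 CPM in male CRE- replicate 2 and to at most 28.8 CPM elsewhere.

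During liver development Afp, Igf2 and H19 are transcribed at high levels in hepatoblasts and are silenced after birth. Igf2 and H19 lie side by side in an imprinted domain, where the paternal copy gives Igf2, a growth factor, and the maternal copy gives H19, a long noncoding RNA. Several of these genes are switched on again in liver regeneration and in hepatocellular carcinoma, where AFP, GPC3 and GOLM1 proteins serve as tumour markers.

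Gcgr, the targeted gene, was measured first. Its level was 190.4, 192.9, 127.3 and 189.6 CPM in male CRE- livers and 116.5, 135.9, 129.9 and 160.3 CPM in male LKO livers. In female CRE- livers it was 161.8, 208.1, 200.7 and 180 CPM, and in female LKO livers 48.8, 131.9, 118.6 and 93.6 CPM. The male groups overlapped, and every female LKO liver lay below every female CRE- liver. The log2 fold change was -0.37 (SE 0.24, adjusted p = 0.671) in males and -0.93 (SE 0.25, adjusted p = 0.0443) in females, from the quasi-likelihood fit of edgeR, with p adjusted by Benjamini-Hochberg over 16742 genes. The female call of Gcgr was held in 3 of 16 fits that each left out 1 library, and the edgeR adjusted p ran from 0.0225 to 0.136 in them. Counts were summed over all exons, the floxed ones and the others, so this level is only a partial check of the labels. In bulk liver, fewer cells of a type and less RNA per cell cannot be told apart. Among the liver markers, Alb was the most abundant in each library, and the 10 hepatocyte markers together reached between 62111 CPM in female LKO replicate 1 and 141693 CPM in female CRE- replicate 4.

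Of the 7 genes, Igf2bp3 did not pass the filter on low counts and 6 were tested. In female LKO against female CRE- livers 3 of the 6 rose, namely Afp, Igf2 and H19, and none fell. Over all tested genes 4.24% passed the same threshold, an adjusted p under 0.05, in either direction, and 2.09% passed it upwards. In that female comparison 3584 genes, 21.4% of those tested, and 5 of the 6 (all but Gpc3) had an unadjusted p under 0.05 by edgeR's test. In male LKO against male CRE- livers none of the 6 passed, where 0.454% of all genes did. In that male comparison 1595 genes (9.53%), 1 of the 6 among them (H19), had an unadjusted p under 0.05 by edgeR's test; DESeq2 called H19 and limma-voom called none of the 6. A test of the difference between the female and the male LKO effect called none of the 6 and 0% of all genes, with 2672 genes and 3 of the 6 (Afp, Igf2 and Cd24a) at an unadjusted p under 0.05. DESeq2 called 371 genes for this difference, Igf2 alone among the 6 (edgeR adjusted p = 0.196, DESeq2 adjusted p = 0.0232), and limma-voom called 29 genes and none of the 6. The calls in females are therefore not shown to differ from the male result.

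The female calls depended on the libraries and on the fit. DESeq2 called the same 3 genes, and limma-voom called Igf2, H19 and Cd24a but not Afp. With each sex fitted alone edgeR called none of the 6 in females, with adjusted p-values of 0.11 for Afp, 0.0758 for Igf2 and 0.0758 for H19, and at an adjusted p under 0.01 none was called either. Afp was not tested when at least 10 counts were asked of every library. Over all genes 710 were called in females, and without female CRE- replicate 1, 2, 3 or 4 the number was 385, 87, 122 and 110. It was 237 without female LKO replicate 1, 1310 without replicate 2 and 404 without replicate 4, and 428 and 427 without male LKO replicates 2 and 4. In males 76 genes were called, and leaving out any male library gave between 26 and 49, while leaving out female CRE- replicate 2 gave 50.

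**Figure D1:**
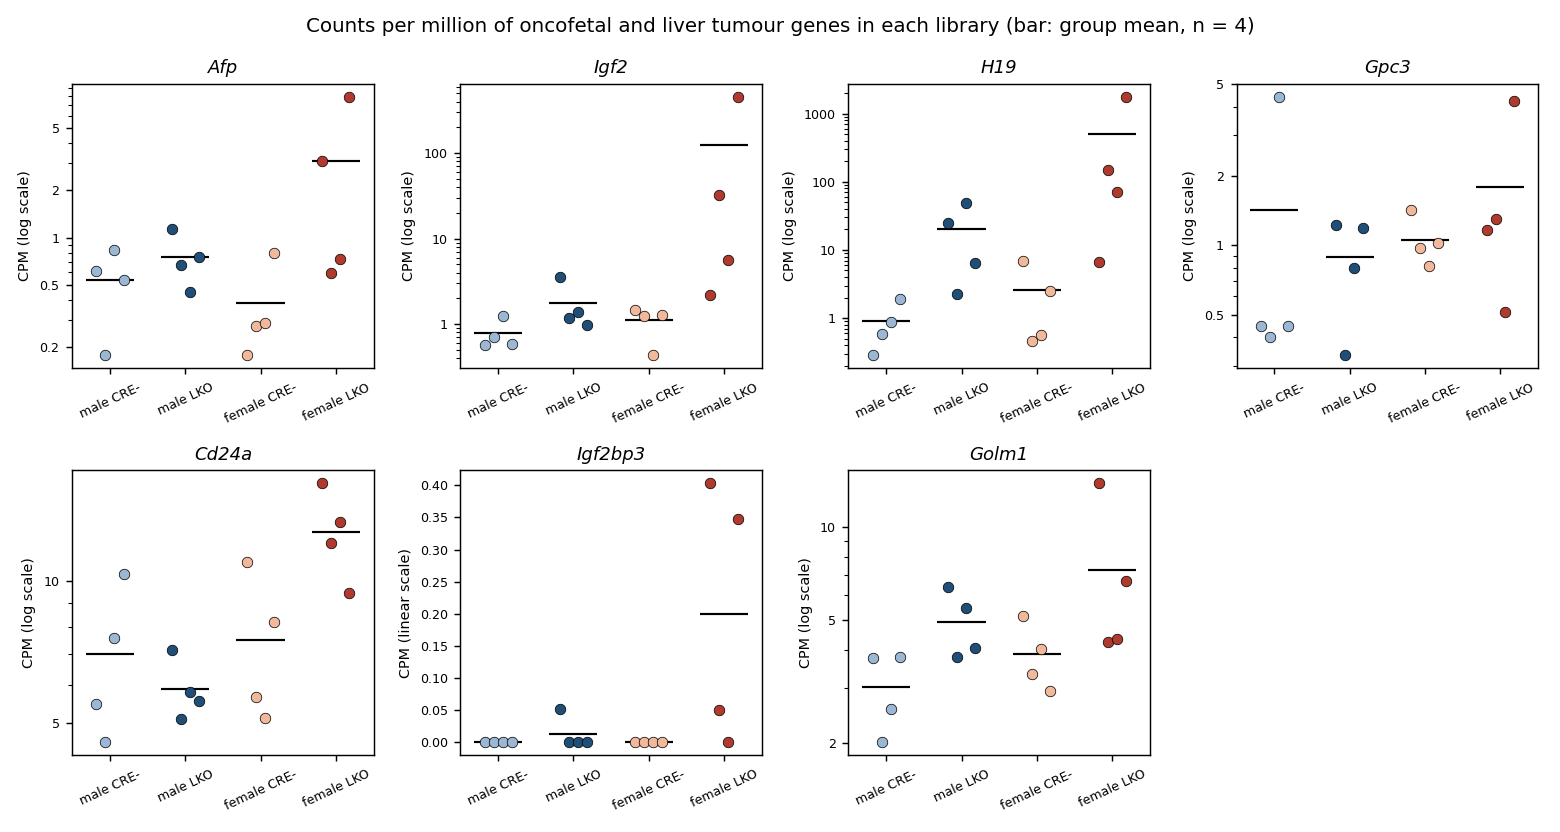
CPM of the 7 genes in each of the 16 libraries, with a point per library in order of replicate number and a bar at the group mean (n = 4); the axis is logarithmic except for Igf2bp3. Female LKO replicate 4 was the highest library for Afp, Igf2 and H19, at 7.95, 458.1 and 1775 CPM.

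H19 had the widest range. Its level in male CRE- livers was 0.284, 0.579, 0.884 and 1.89 CPM, and in male LKO livers 24.7, 2.29, 48.5 and 6.43 CPM. In female CRE- livers it was 6.81, 0.467, 0.575 and 2.51 CPM and in female LKO livers 6.62, 150.3, 71.8 and 1775 CPM. The male groups did not overlap, although male LKO replicate 2 was only 1.21 times the highest male control. In females the groups overlapped through LKO replicate 1, which lay just under CRE- replicate 1, and the other LKO livers were between 10.5 and 260.6 times the highest control. The log2 fold change was 7.59 (SE 1.59) in females, with an adjusted p of 0.0206 by edgeR with Benjamini-Hochberg adjustment. In males it was 4.50 (SE 1.42) with an adjusted p of 0.249 by edgeR, 0.0199 by DESeq2 and 0.0589 by edgeR with males fitted alone. Exact two-sided permutation tests over the 70 arrangements of a sex's libraries, added after the data were seen, gave p = 0.0286 for the male difference in mean CPM, the smallest value they allow. For females the exact permutation p was 0.0571.

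Female LKO replicate 4 held 61350 H19 counts, 0.184% of its total (95% Clopper-Pearson interval 0.183% to 0.186%). H19 was the 86th gene of that library by level per merged exon length of the gene (FPKM), and the 15493rd in male CRE- replicate 1. Without female LKO replicate 4 the female log2 fold change of H19 was 4.88 (SE 1.16, edgeR adjusted p = 0.0429), and it stayed called. The call was lost without female CRE- replicate 2, 3 or 4, where edgeR gave log2 fold changes of 7.24, 7.26 and 7.60 and adjusted p-values of 0.0773, 0.0685 and 0.0679.

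H19 is also expressed in skeletal muscle, so muscle markers were read beside it. The summed level of 8 markers was 156.7 CPM in male LKO replicate 3 and 90.8 CPM in male LKO replicate 4, with Acta1 the most abundant and no marker at 0. It was 32.9 CPM in female CRE- replicate 4, 16.1 CPM in female LKO replicate 2 and 8.87 CPM in female CRE- replicate 1, and at most 2.09 CPM in the other 11 libraries. Female LKO replicate 4, the library with the most H19, had 1.62 CPM of muscle markers and counts of 0 for Ckm, Myh4, Myh1, Tnnt3 and Myl1. Male LKO replicate 1 had 24.7 CPM of H19 beside 1.93 CPM of muscle markers. In male LKO replicates 3 and 4 the part of muscle RNA in the H19 level was not tested. With the 5 libraries above 5 CPM left out, a choice made after the data were seen, the log2 fold change of H19 was 3.87 in males and 10.30 in females, and edgeR called neither (adjusted p = 0.862 and 0.104). In females the same omission gave log2 fold changes of 3.82 for Afp and 7.56 for Igf2, and edgeR called neither (adjusted p = 0.104 and 0.12). The omission left male LKO replicates 1 and 2 and female CRE- replicates 2 and 3 as the only livers of their groups. Few genes of any kind were called in this fit, so the missing calls do not show the part of muscle RNA.

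**Figure D2:**
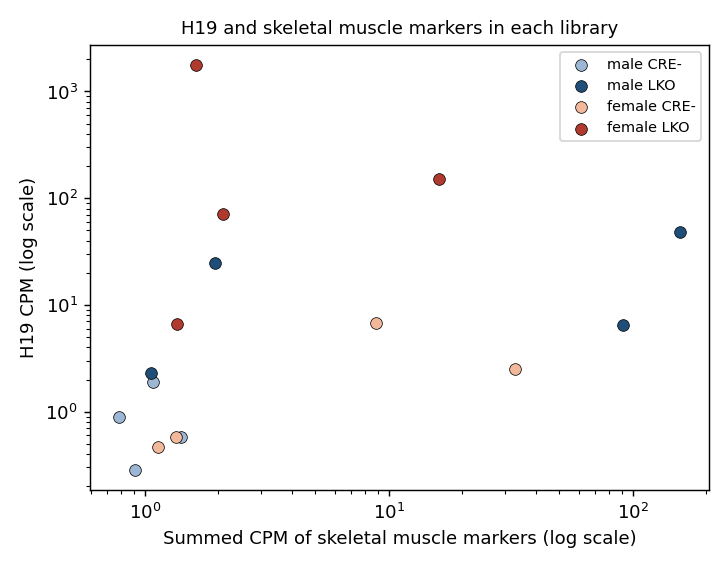
H19 level against the summed level of 8 skeletal muscle markers, both in CPM on logarithmic axes, with a point per library coloured by group. Male LKO replicates 3 and 4 lie far to the right, at 156.7 and 90.8 CPM of markers, and female LKO replicate 4 is highest in H19 with 1.62 CPM.

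Igf2 encodes a fetal growth factor that signals through the type 1 IGF receptor. It measured 0.568, 0.713, 1.25 and 0.584 CPM in male CRE- livers and 3.6, 1.17, 1.39 and 0.972 CPM in male LKO livers. Female CRE- livers had 1.46, 1.25, 0.431 and 1.28 CPM, and female LKO livers 2.22, 32.5, 5.67 and 458.1 CPM. Every female LKO liver was above every female control, from 1.51 times the highest control in replicate 1 to 312.9 times in replicate 4, whereas the male groups overlapped. Groups with every LKO library above every control were found for 5.2% of tested genes in females and 3.57% in males; Igf2 was such a gene in females, and H19 and Golm1 were in males. The female log2 fold change was 6.81 (SE 1.32) with an edgeR adjusted p of 0.0162. The exact two-sided permutation p was 0.0286, the smallest possible, which follows from the lack of overlap. In males it was 1.2 (SE 1.15, edgeR adjusted p = 0.777). Without female LKO replicate 4 the female value was 3.60 (SE 0.74, edgeR adjusted p = 0.0251), and limma-voom gave 4.08 (adjusted p = 0.034) with every library. Leaving out female CRE- replicate 2, 3 or 4 raised the adjusted p of edgeR to 0.0654, 0.0566 and 0.0575, past the threshold, with log2 fold changes of 6.87, 6.54 and 6.92.

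Igf2 and H19 varied together over the 16 libraries, with a Spearman rho of 0.882, and 0.685 after the group means were subtracted. H19 exceeded Igf2 per length in 15 of 16 libraries, with an FPKM ratio from 0.934 in female CRE- replicate 2 to 86.9 in male LKO replicate 3. The merged exons measured 2288 bases for H19 and 5701 for Igf2, and the ratio depends on these lengths. In female LKO replicate 4 the ratio was 9.65. Both genes lie on the minus strand of chromosome 7 in GRCm39, H19 at chr7:142129267-142131883 and Igf2 at chr7:142204505-142220566. Within 100 kb of the pair 3 other genes were tested, and Lsp1, Tnnt3 and Mrpl23, chosen by position, were not called in either sex (edgeR adjusted p from 0.214 to 0.877). Tnnt3, a fast skeletal muscle troponin, is among the muscle markers. Igf2os, antisense to Igf2 with overlapping exons, had 58 counts in female LKO replicate 4 and at most 2 in any other library; it was chosen after its values were seen. Counting used strand, so reads were given to Igf2, with 15836 counts in that library, or to Igf2os by their strand. Whether the 58 counts came from antisense RNA or from Igf2 reads with the wrong strand was not tested.

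H19 and Igf2 each host a microRNA, Mir675 within an H19 exon and Mir483 within an Igf2 intron. The hairpins had 0 counts in every library, and mature microRNAs carry no poly-A tail, so these libraries do not measure them. Because a read over Mir675 belongs to both genes, it was counted for neither. The mature sequences from RefSeq (GRCm38.p6, minus strand of chromosome 7) are shown to identify the products of the host genes, with the seed, bases 2 to 8, in capitals. No seed was shared among the 4.
mmu-miR-675-5p: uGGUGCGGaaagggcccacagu
mmu-miR-675-3p: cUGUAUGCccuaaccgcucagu
mmu-miR-483-5p: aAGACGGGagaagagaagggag
mmu-miR-483-3p: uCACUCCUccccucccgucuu

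Afp, the fetal counterpart of albumin, lies at chr5:90638573-90656766 on the plus strand. Its level was 0.609, 0.178, 0.832 and 0.539 CPM in male CRE- livers and 1.13, 0.666, 0.447 and 0.756 CPM in male LKO livers. Female CRE- livers had 0.177, 0.273, 0.287 and 0.802 CPM and female LKO livers 3.07, 0.598, 0.732 and 7.95 CPM. Female LKO replicates 1 and 4 were 3.83 and 9.92 times the highest female control, and LKO replicates 2 and 3 lay within the control range. The log2 fold change was 3.01 (SE 0.76, edgeR adjusted p = 0.0395) in females and 0.48 (SE 0.73, edgeR adjusted p = 0.866) in males. The exact permutation p in females was 0.0857. The female call was lost without LKO replicate 4 (log2 fold change 1.92, edgeR adjusted p = 0.116), LKO replicate 1 (3.03, 0.0761), or female CRE- replicate 1, 2, 3 or 4 (2.77, 2.87, 2.89 and 3.65, with adjusted p-values of 0.0832, 0.133, 0.112 and 0.0605 by edgeR). It was lost too without male CRE- replicate 1 or male LKO replicate 2 or 4 (edgeR adjusted p = 0.0532, 0.055 and 0.0547). Male libraries enter this comparison through the shared estimate of spread and the set of genes tested, and these were not separated. limma-voom gave a female log2 fold change of 1.83 (adjusted p = 0.057). Afp stayed low even where it rose: the highest level, 275 counts, was 6732nd by FPKM in its library. Alb, at 59095 ± 14254 CPM in female LKO and 95606 ± 6817 CPM in female CRE- livers (SD, n = 4), was not called (edgeR adjusted p = 0.103). Afm, another gene of the albumin family, fell in females by 1.12 on the log2 scale (SE 0.22, edgeR adjusted p = 0.0176).

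Nr5a2, a transcription factor of adult liver, was among 17 postnatal repressors and liver transcription factors. In females it fell by 0.58 on the log2 scale (SE 0.16, adjusted p = 0.0483), and none of the 17 rose, by edgeR with Benjamini-Hochberg adjustment. In males edgeR called none of the 17, with 1 at an unadjusted p under 0.05 and 1 called by DESeq2 and 0 by limma-voom. Zhx2 and Zbtb20, repressors of Afp in adult liver that were picked from this list after their values were seen, were not called in either sex.

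Gpc3 encodes a heparan sulfate proteoglycan at the cell surface and lies on chromosome X. It measured 0.446, 0.401, 4.42 and 0.449 CPM in male CRE- livers and 1.23, 0.333, 0.795 and 1.19 CPM in male LKO livers. Female CRE- livers had 1.42, 0.973, 0.814 and 1.02 CPM and female LKO livers 1.16, 1.3, 0.512 and 4.22 CPM. Male CRE- replicate 3 and female LKO replicate 4 stood high and the groups overlapped in both sexes. The log2 fold change was -0.68 (SE 0.77, edgeR adjusted p = 0.814) in males and 0.76 (SE 0.76, edgeR adjusted p = 0.619) in females. Both signs rested on those libraries: without male CRE- replicate 3 the male value was 1.01, and without female LKO replicate 4 the female value was -0.11. limma-voom gave 0.29 in males and -0.16 in females. Of 11 tested glypicans, syndecans and modifiers, Sdc2 fell by 0.72 in females (SE 0.14, edgeR adjusted p = 0.0168) and Sulf2 fell by 2.0 in males (SE 0.36, edgeR adjusted p = 0.023), both on the log2 scale.

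Cd24a encodes a small glycosylated surface protein of progenitor, biliary and immune cells. Its levels were 5.48, 4.54, 7.59 and 10.4 CPM in male CRE- livers and 7.15, 5.08, 5.81 and 5.56 CPM in male LKO livers. They were 11, 5.68, 5.12 and 8.18 CPM in female CRE- livers and 16.2, 12.1, 13.4 and 9.43 CPM in female LKO livers. Female LKO replicates 1, 2 and 3 were above every female control and replicate 4 was not. The female log2 fold change was 0.77 (SE 0.28, edgeR adjusted p = 0.122) and the exact permutation p was 0.0571; limma-voom with sample weights gave 0.99 and called it (adjusted p = 0.0124). In males it was -0.25 (SE 0.28, edgeR adjusted p = 0.817). By edgeR none of 6 partners of Cd24a and phagocytosis checkpoints was called in either sex, with 3 at an unadjusted p under 0.05 and 2 called by DESeq2 and 2 by limma-voom in females and 0 by each in males; of these the most abundant were Cd47 and Sirpa, at 75.4 ± 16.7 and 124.7 ± 105.3 CPM in female LKO livers (SD, n = 4).

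Golm1, a type II membrane protein of the Golgi, measured 3.77, 2.01, 2.57 and 3.78 CPM in male CRE- livers and 6.38, 3.79, 5.47 and 4.05 CPM in male LKO livers. Female CRE- livers had 5.15, 3.35, 4.02 and 2.94 CPM and female LKO livers 13.8, 4.24, 4.32 and 6.68 CPM. The male groups did not overlap, although LKO replicate 2 and CRE- replicate 4 almost met at 3.79 and 3.78 CPM, and in females LKO replicates 1 and 4 exceeded every control. The log2 fold change was 0.70 (SE 0.36, edgeR adjusted p = 0.568) in males and 0.91 (SE 0.36, edgeR adjusted p = 0.15) in females. The exact two-sided permutation p was 0.0286 in males, the smallest possible, which follows from the lack of overlap. In females it was 0.114. The female value was 0.35 by limma-voom. By edgeR none of 14 Golgi genes was called; in females 1 and in males 2 had an unadjusted p under 0.05, DESeq2 called 1 in each sex, and limma-voom called 1 in females and 0 in males. Furin and Man1a, the most abundant of them, had female log2 fold changes of -0.06 and -0.33.

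Igf2bp3 encodes an RNA-binding protein of fetal tissues that binds Igf2 mRNA. It had 0 counts in all 8 control livers. Male LKO replicate 1 had 2 counts and the other male LKO livers 0, while female LKO replicates 1, 2, 3 and 4 had 16, 2, 0 and 12 counts. The female LKO group thus had 30 counts against 0, which is 10.4-fold higher when 3 counts over the whole control group are taken as the floor. Replicate 1 gave 16 of the 30 counts, and the fold is lower without it. The exact two-sided permutation test of mean CPM gave p = 0.143 in females and p = 1 in males. Each mate of a read pair was counted, so these counts and the floor of 3 stand for fewer fragments, and 10.4-fold is not a firm lower bound. Its relative Igf2bp2 rose in females by a log2 fold change of 2.30 (SE 0.58, edgeR adjusted p = 0.0388), from 1.24 ± 0.50 to 6.12 ± 5.24 CPM (SD, n = 4). It was the only gene called of 10 tested IGF2BP relatives and m6A genes in females.

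**Figure D3:**
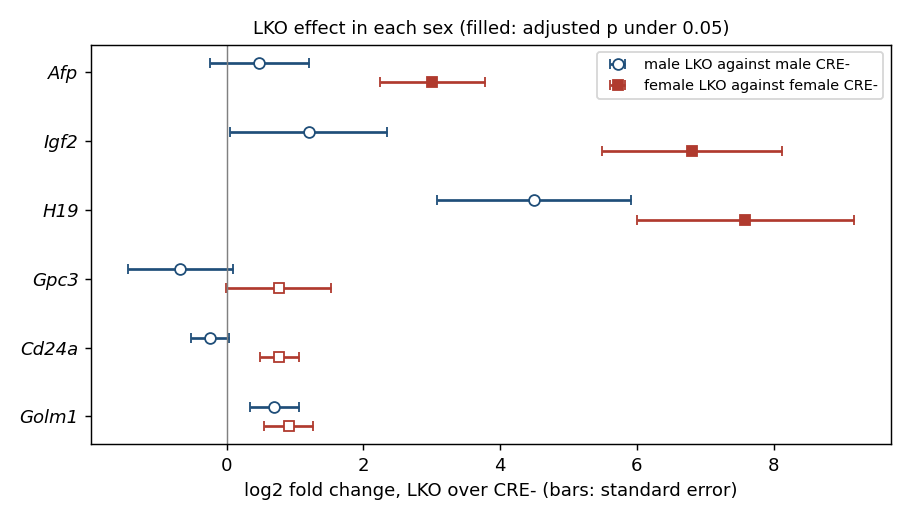
log2 fold change of LKO over CRE- for the 6 tested genes in males (circles) and females (squares), with standard errors (n = 4 per group); filled symbols passed an edgeR adjusted p under 0.05. Afp, Igf2 and H19 are filled in females, at 3.01, 6.81 and 7.59, and no symbol is filled in males.

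Without the knockout, no gene of the 6 was called between female CRE- and male CRE- livers, a comparison in which 0.92% of all genes passed the edgeR threshold, 2121 genes but 0 of the 6 had an unadjusted p under 0.05, and DESeq2 and limma-voom also called none of the 6. Ordered by mean FPKM, female LKO livers ran H19 at 218.9, Igf2 at 21.9, Cd24a at 5.79, Golm1 at 1.97, Afp at 1.48, Gpc3 at 0.792 and Igf2bp3 at 0.0141. The ranges of neighbours in this order overlapped, with SDs of 372, 39.1 and 1.65 FPKM for H19, Igf2 and Afp (n = 4). The exceptions were Cd24a (SD 1.27) over Golm1 (SD 1.22) and Gpc3 over Igf2bp3, whose ranges did not overlap. Within each female LKO library H19 was above Igf2. In female CRE- livers Cd24a led with 3.40 ± 1.22 FPKM, and H19 at 1.13 ± 1.30 overlapped it and Golm1 at 1.05 ± 0.26; below Golm1 came Gpc3 at 0.465 ± 0.114, Igf2 at 0.194 ± 0.081, Afp at 0.184 ± 0.135 and Igf2bp3 at 0 (SD, n = 4). Of the neighbours from Golm1 down, Igf2 and Afp overlapped and the others did not. Gpc3 and Afp, which were not neighbours, overlapped too (lowest Gpc3 0.359 FPKM, highest Afp 0.384 FPKM). Male LKO livers ran H19 at 8.96, Cd24a at 2.67, Golm1 at 1.33, Gpc3 at 0.391, Afp at 0.36 and Igf2 at 0.313 FPKM, and of these neighbours Cd24a and Golm1, and Golm1 and Gpc3, did not overlap. In male CRE- livers Cd24a led at 3.17 FPKM, apart from Golm1 at 0.821, and Golm1, Gpc3, H19, Afp and Igf2 each overlapped the next.

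Of 29 genes of the gene and marker lists that were called in females, 3 (Ly6d, Peg10 and Igfals) were called in each of the 16 fits that left out 1 library, and the others lost the call in at least 1. Leaving out female CRE- replicate 2 lost 26 of the 29, CRE- replicate 3 lost 25, CRE- replicate 4 lost 23, LKO replicate 1 lost 21 and CRE- replicate 1 lost 19. Of 3 called in males none held in each fit.

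Of 19 tested other oncofetal and liver tumour genes, 4 rose in females and none fell: Igf2bp2, Ly6d, Peg10 and Tspan8. The median log2 fold change of the 19 was 0.77, beside 0.04 for all tested genes. Ly6d, a surface antigen, was 17, 27.4, 35 and 240 CPM in female LKO livers, above the female controls in each library, and its log2 fold change was 4.45 (SE 0.74, edgeR adjusted p = 0.00646). Peg10, an imprinted gene derived from a retrotransposon, measured 6.49, 2.24, 1.5 and 2.43 CPM there, against 0.311, 0.234, 0.383 and 0.16 CPM in the controls, with a log2 fold change of 3.52 (SE 0.58, edgeR adjusted p = 0.00646). In males Robo1 fell by 2.74 on the log2 scale (SE 0.56, edgeR adjusted p = 0.0414), and the list's median was 0.96 beside -0.01 for all genes.

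Of 16 tested IGF axis genes, Igfbp1 rose and Igfals and Ghr fell in females. In males edgeR called none of the 16, with 5 at an unadjusted p under 0.05 and 1 called by DESeq2 and 0 by limma-voom. Igfbp1, which binds IGFs in blood, was highest in female LKO replicate 4 at 728.3 CPM, the library richest in Igf2 and H19; its log2 fold change was 3.04 (SE 0.69, edgeR adjusted p = 0.0266). Igfals, which stabilises circulating IGF complexes, fell by 1.42 (SE 0.25, edgeR adjusted p = 0.00939) and Ghr, the growth hormone receptor, fell by 1.24 (SE 0.25, edgeR adjusted p = 0.0184) on the log2 scale. Among 14 tested other imprinted genes edgeR called Sgce alone, and it rose in both sexes, by log2 fold changes of 1.48 (SE 0.28, edgeR adjusted p = 0.0292) in males and 1.01 (SE 0.28, edgeR adjusted p = 0.0497) in females. The call was held in 9 of 16 fits that left out 1 library in males and in 4 of 16 in females. In females 5 of the 14 had an unadjusted p under 0.05, DESeq2 called 4 and limma-voom 1. In males these numbers were 3, 1 and 1. By edgeR none of 14 Wnt and beta-catenin targets was called, with 1 in each sex at an unadjusted p under 0.05 and 0 by DESeq2 and limma-voom; Glul had 2457 ± 2205 CPM in female LKO livers (SD, n = 4).

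Markers of other cells also moved in females. Of 12 proliferation markers 8 rose (Aurkb, Birc5, Ccnb1, Cdk1, Kif20a, Plk1, Top2a and Ube2c). The summed level of all 12, led by Mki67, which was not called, was 109.1, 23.1, 48.8 and 53.2 CPM in female LKO livers against 13.2, 14.5, 8.43 and 24.4 CPM in the controls. Macrophage markers, led by Cd5l, summed to 3722, 885.6, 1990 and 1105 CPM in female LKO and 683.8, 521.8, 570.5 and 971.7 CPM in female CRE- livers, and Adgre1 and Trem2 of 10 were called. LKO replicate 1, high in both sums, was highest in Cd24a, Golm1 and Igf2bp3 and lowest in Igf2 and H19 of its group. Neutrophil markers, led by S100a9, summed to 145, 47.4, 77.9 and 675 CPM in female LKO and 39.7, 21.6, 17.5 and 19.6 CPM in female CRE- livers. Of 9 tested Ltf, Mmp8, Ngp and Retnlg were called. Female LKO replicate 4 was thus highest in neutrophil markers, H19, Igf2 and Afp. Of 7 endothelial markers Cdh5 and Vwf were called and rose. In all 5 of the 7 had a positive female log2 fold change, and Clec4g and Kdr had -0.705 and -0.123. Of 7 tested erythroid markers Klf1 was called and fell, while 6 had a positive female log2 fold change and the median was 0.57. Erythroid markers, led by Hbb-bs, summed to 409.9, 872.6, 306.5 and 1653 CPM in female LKO livers. The sums in female CRE- livers were 546.6, 486.1, 395.3 and 791.9 CPM, so female LKO replicate 4 was highest here too. The part of these cells in the levels of Afp, Igf2 and H19 was not tested. By edgeR no gene was called in females among 69 tested hepatocyte, cholangiocyte, B, T and NK cell, stellate cell, mesothelial, muscle, acinar and adipocyte markers, of which 14 (20.3%, beside 21.4% of all tested genes) had an unadjusted p under 0.05, DESeq2 called 2 and limma-voom 8. The hepatocyte markers, led by Alb, nonetheless lay lower together in female LKO livers, where they summed to 62111, 100124, 95037 and 78201 CPM against 128071, 119793, 125407 and 141693 CPM in the controls. Every female LKO sum was below every control sum, and none of the 10 markers was at 0 counts in any library. Of these 10 markers 0 had a positive female log2 fold change (1 with upper-quartile scaling), and their median was -0.58 beside 0.04 for all tested genes. In males the sums were 69435, 79171, 98133 and 80614 CPM in LKO and 76329, 103721, 116334 and 102437 CPM in CRE- livers and overlapped, and the markers there had -0.22 as their median log2 fold change. The part of this lower level in the results for Afp, Igf2 and H19 was not tested. In males edgeR called none of 114 tested markers of all cell types, while DESeq2 called 10 and limma-voom 0. Of the 114, 30 (26.3%, beside 9.53% of all tested genes) had an unadjusted p under 0.05, 8 of them for skeletal muscle and 8 for neutrophils. The 8 muscle markers all had positive male log2 fold changes, with a median of 7.4. Of the 9 tested neutrophil markers 0 were positive in males, with a median of -2.2. All 9 were positive in females, with a median of 3.5. The male neutrophil sums were 27.9, 17.6, 13.5 and 12.7 CPM in LKO and 103.3, 21.5, 21.2 and 209.2 CPM in CRE- livers. The male sums overlapped, and CRE- replicates 1 and 4 stood high.

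Likeness to each gene was described by Spearman's rho of log2 CPM over the 16 libraries among 13078 other genes with a mean of at least 1 CPM, and the libraries share groups. With Pearson's r or after subtraction of the group means at most 1 of the 3 nearest genes was the same for any of the 6. The genes most like H19 were Dnajc12, Ly6d and Igf2 (rho 0.89, 0.88 and 0.88), and those most like Igf2 were Slc5a1, Ccnb1 and H19 (0.94, 0.89 and 0.88). After subtraction of the group means the rho of Igf2 with Ccnb1 was 0.21. Afp was most like Ifngr2, Mmp13 and Ska2 (0.88, 0.86 and 0.86), and Cd24a most like Spint1, Sema4b and Lbh (0.88, 0.86 and 0.86). Golm1 was nearest to Bclaf3, Flvcr1 and Igfbp1 (0.91, 0.88 and 0.87), and Gpc3 to Mturn, Nid1 and Col4a2 (0.81, 0.80 and 0.80), of which the last encode basement membrane proteins. The most opposite genes were Gm2065, Mup-ps16 and Papln for H19 (-0.91, -0.86 and -0.84) and Mfsd8, Hectd3 and Car1 for Igf2 (-0.93, -0.89 and -0.89). For Afp they were Mgme1, Cfhr2 and Iigp1c (-0.87 each), and for Cd24a Nars2, Plpbp and Cnmd (-0.89, -0.87 and -0.87). For Golm1 they included Miga2 and Pex5 (-0.92 and -0.89), and for Gpc3 Gm32468, Cyp2e1 and Ciao3 (-0.75, -0.74 and -0.73).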

How the data were processed

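The authors aligned reads to GRCm39 with STAR 2.7.1a and deposited raw counts per gene from featureCounts (Subread 2.0.6), stranded, with each mate of a pair counted. The counts of 16 libraries were analysed with edgeR 4.0.16 in R 4.3.3: filterByExpr with a minimum count of 10 left 16742 of 41079 genes, libraries were scaled by TMM, and a quasi-likelihood model of 4 groups gave the comparisons. P-values were adjusted by Benjamini-Hochberg over all genes tested, with a threshold of 0.05. Standard errors are the log2 fold change over the square root of the F statistic. Alternatives were DESeq2 1.42.0, limma-voom 3.58.1, other scalings and filters, each sex alone, a replicate block and each library left out. Igf2bp3, under the filter, was tested by exact permutation. Named genes were the 7, list genes called in either sex, the 2 most abundant of lists without a call, Gcgr, and the 3 genes most and least like each tested gene; not every one is printed. The genes and lists were chosen with earlier results of these data known. No library pair of a group agreed within sampling noise.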

Additional observations from a re-analysis of the deposited data

Results flagged for a closer look

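In groups of 4 libraries, a library was set apart where its gap to the nearest other library took up most of the group's range, by Dixon's ratio at the 95% level. About 1 in 20 groups passes this by chance if the values are normally distributed. CPM of genes with low counts need not be, so the rate here is not known. In total 28 groups were read, of which 2 were at 0 throughout and could not pass. Igf2 in female LKO replicate 4 was 458.1 CPM beside 32.5 CPM for the next library, and H19 in the same library was 1775 CPM beside 150.3 CPM. Igf2 in male LKO replicate 1 was 3.60 CPM beside 1.39 CPM. Gpc3 in male CRE- replicate 3 was 4.42 CPM beside 0.449 CPM. Igf2bp3 in male LKO replicate 1 was 0.0514 CPM, which is 2 counts, beside 0 in the other libraries; with the others at 0 any count passes, so the ratio says nothing about this value. The cause of these values was not tested.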

How the results depend on the processing

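The female calls changed most. Afp, H19 and Igf2 were called in females with RLE or upper-quartile scaling, without the filter and with DESeq2; limma-voom called 3 with Cd24a in place of Afp, and with at least 10 counts in every library H19 and Igf2 were called and Afp was not tested. The number was 0 with each sex fitted alone, at an adjusted p under 0.01 and without the 5 libraries with muscle markers, an alternative chosen after the data were seen, and ran from 0 to 3 with 1 of the 16 libraries left out. DESeq2 called 1 of the 6 in males and 1 in the difference between the sexes.

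Genes called in males numbered 339 with DESeq2, 148 with limma-voom, 22 at the stricter threshold, 10 without muscle-marked libraries and 26 to 111 with a library left out, against 76. In females they numbered 1816, 1976, 51 and 12 in that order, 119 with each sex alone and 87 to 1310 with a library left out, against 710. In the difference between the sexes they numbered 371 with DESeq2, 29 with limma-voom, 12 without the filter and 0 to 14 with a library left out, against 0. Between controls they numbered 509, 329, 54 and 26 in the first order, 78 with 10 counts in every library and 68 to 213 with a library left out, against 154. The causes were not tested, beyond fewer libraries or a stricter threshold. With the replicate block 1244 genes and 3 of the 6 were called in females; correlations of same-numbered livers within a sex ran from -0.013 to 0.173, so the numbers were not taken as pairs.

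Signs reversed for uncalled values. For Gpc3 limma-voom gave 0.293 in males, -0.164 in females, -0.457 in the difference and 0.878 between controls; with a library left out it ran from -0.991 to 1.01, -0.106 to 1.08, -0.245 to 1.77 and -0.735 to 1.27 in the same order. The difference for Golm1 was -0.111 with limma-voom and ran from -0.278 to 0.403 with a library left out. Cd24a then ran from -0.404 to 0.0103 in males and from -0.144 to 0.355 between controls. Without muscle-marked libraries H19 was -0.856 and Cd24a -0.426 between controls. The cause of these reversals was not tested. Low counts limit Afp, Gpc3 and Igf2bp3.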
